A study of Mus musculus with 16 samples.

Results

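Expression of 8 genes of Schwann cells and satellite glia was examined in the mesenchyme of the embryonic mouse lower urinary tract. The genes are Sox10, Foxd3, Fabp7, Cdh19, Erbb3, S100b, Gfap and Mal, found by symbol among the 55228 genes of the count table. All 8 were present and all 8 were among the 18254 genes that passed the filter on low counts and were tested. The tissue was pelvic urethra and bladder mesenchyme of untreated wild-type embryos of the outbred CD-1 stock at embryonic day 16.5, freed of epithelium with trypsin and forceps. Embryos of each sex were pooled within a litter, and each of 4 litters gave 1 library of urethra male, urethra female, bladder male and bladder female mesenchyme. There were thus 16 poly(A)-selected, strand-specific RNA libraries, with n = 4 in each of the 4 groups. The replicate number names the litter, and since every litter gave a male and a female pool, the 8 libraries of a tissue come from 4 litters. The study set out to find genes that mark the urethral or the bladder compartment.

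Schwann cells wrap the axons of peripheral nerves, and satellite glia surround the cell bodies of neurons in peripheral ganglia. Both derive from the neural crest, and in the pelvis they accompany the autonomic ganglia and nerves that supply the bladder and urethra. The transcription factor Sox10 is required for both cell types, and axons sustain Schwann cell precursors through neuregulin 1, which binds the receptor Erbb3 on the glial cell in a pair with Erbb2. Precursors also carry the transcription factor Foxd3, the fatty acid-binding protein Fabp7 and the cadherin Cdh19, whereas the calcium-binding protein S100b and the intermediate filament Gfap are better known from more mature glia. Mal is a membrane protein of myelin that also sorts cargo to the apical surface of epithelial cells, the urothelium included.

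Total counts ran from 24447435 to 29698009 in urethra libraries and from 18577097 to 22293812 in bladder libraries, so tissue and depth cannot be told apart, though levels are given as CPM, counts scaled to a common library total. Libraries of a group differed from each other by more than sampling noise in each of 24 pairs. The lowest summed levels of 22 epithelium genes were in urethra female replicate 4 at 805.3 CPM and replicate 3 at 1237 CPM, and the highest summed level of 25 autonomic neuron genes in bladder was in bladder male replicate 3 at 1286 CPM. Myelinating and astrocytic glia of the central nervous system were checked with 8 genes. Among them Olig2, which defines oligodendrocytes, had 0 counts in each of the 16 libraries, and Mog and Olig1 had at most 2 and 3 counts in a library. Mobp, Aqp4 and Opalin had at most 13, 10 and 9 counts. Gpr17 and Aldh1l1 were counted in every library, with 29 to 1035 and 64 to 263 counts.

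Promoter sequence from RefSeq (GRCm38.p6) was matched for 5 of the 8 genes, namely Foxd3, Fabp7, S100b, Gfap and Mal. Those of Foxd3, Fabp7, S100b and Mal are shown because these genes cover the pattern described here: Foxd3 and Fabp7 stood clear of bladder in every urethra library, S100b differed little between the tissues, and Mal went the other way. Each runs 5′ to 3′ on the strand of the gene and ends just before its RefSeq start site, except that of Fabp7, which stops where the gene begins in the count table, 42 bases short of the RefSeq start site. Capitals mark CCAAT or its reverse complement.
Foxd3, chr4:99656049-99656298, plus strand: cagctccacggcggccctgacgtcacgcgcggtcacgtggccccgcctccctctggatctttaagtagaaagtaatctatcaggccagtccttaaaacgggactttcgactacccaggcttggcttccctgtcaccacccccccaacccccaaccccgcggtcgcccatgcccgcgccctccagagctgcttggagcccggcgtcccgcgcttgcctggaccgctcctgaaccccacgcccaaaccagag
Fabp7, chr10:57784673-57784880, plus strand: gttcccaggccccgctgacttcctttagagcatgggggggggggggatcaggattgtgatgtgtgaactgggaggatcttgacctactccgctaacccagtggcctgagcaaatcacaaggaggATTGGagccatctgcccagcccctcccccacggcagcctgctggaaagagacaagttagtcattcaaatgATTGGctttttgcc
S100b, chr10:76253586-76253835, plus strand: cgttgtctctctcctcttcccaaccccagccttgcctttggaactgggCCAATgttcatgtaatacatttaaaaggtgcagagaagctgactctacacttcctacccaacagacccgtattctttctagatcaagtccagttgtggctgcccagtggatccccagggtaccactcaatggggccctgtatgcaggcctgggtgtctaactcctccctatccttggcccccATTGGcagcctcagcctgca
Mal, chr2:127656696-127656945, minus strand: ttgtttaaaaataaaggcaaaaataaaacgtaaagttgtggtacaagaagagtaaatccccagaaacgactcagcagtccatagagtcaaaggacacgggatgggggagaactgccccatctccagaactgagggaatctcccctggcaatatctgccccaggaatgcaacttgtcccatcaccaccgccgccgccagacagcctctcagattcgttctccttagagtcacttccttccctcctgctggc

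Searched on both strands, CCAAT occurred in 2 of the 5 promoters and in 33.8% of all 32851 promoters in the table. It lay 126 and 56 bases before the RefSeq start site of Fabp7, both on the reverse strand and counted with the 42 bases not shown, and 202 and 20 bases before that of S100b, on the forward and the reverse strand. The SOX-type motifs ACAAAG (16.5% of all promoters) and ACAATG (10.7%), and the TATA-box core TATAAA (12.4%), were in none of these 5 windows.

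The glia genes split into 3 groups between the tissues. Sox10, Foxd3, Fabp7 and Cdh19 were between 4.02- and 6.34-fold higher in urethra mesenchyme than in bladder mesenchyme. Erbb3, S100b and Gfap were between 1.32- and 1.43-fold higher, and Mal was 3.40-fold lower. By edgeR's quasi-likelihood test, over the mean of both sexes, 7 of the 8 were thus called higher and 1 lower at an adjusted p under 0.05, where 36.5% of all tested genes were called higher and 38.5% lower. With at least a 2-fold difference also asked for, 4 were higher and 1 lower, against 12.6% and 9.41% of all tested genes. Every urethra library lay above every bladder library for 4 of the 8, against 22% of all tested genes, and below for none of them, against 20.3%. The median log2 fold change of the 8 genes was 1.26, and that of all tested genes −0.03. In these bulk samples, the number of glial cells, the RNA per glial cell and RNA from other cells cannot be told apart.

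**Figure D1:**
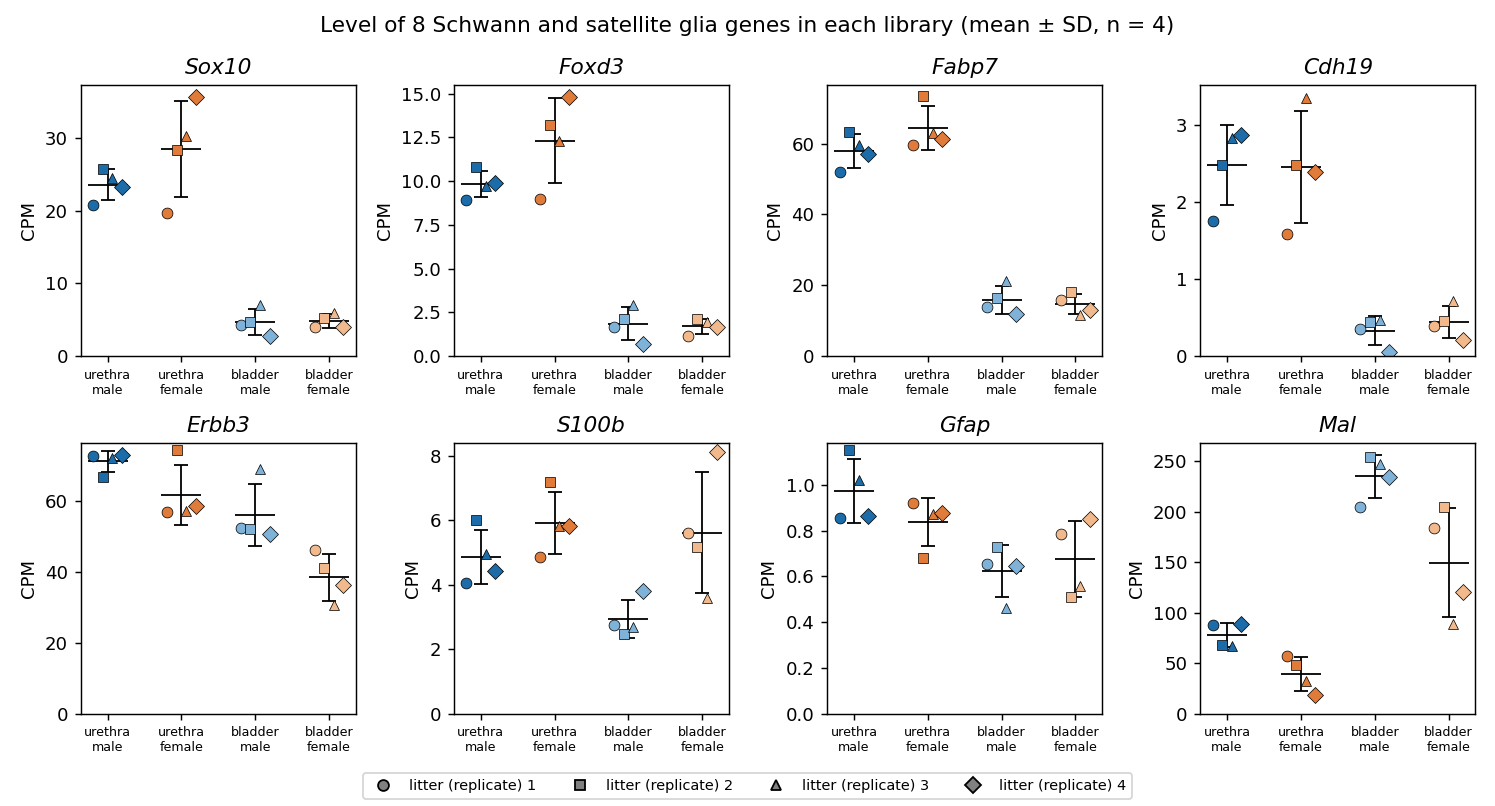
Level of each gene in CPM (y axis, starting at 0) in the 4 libraries of each group (x axis), with a symbol for each litter and the mean ± SD as a line with bars. Sox10, Foxd3, Fabp7 and Cdh19 stand above all bladder libraries in every urethra library, while Erbb3, S100b and Gfap overlap between the tissues and Mal is higher in bladder.

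Sox10 (chr15:79154908-79165240, minus strand; this and the following gene positions are those of GRCm38 in the count table) is the factor that specifies and maintains the glial lineage. Its level was 20.8, 25.8, 24.5 and 23.3 CPM in urethra male libraries and 19.7, 28.4, 30.3 and 35.7 CPM in urethra female libraries, replicates 1 to 4. In bladder male libraries it was 4.22, 4.67, 7.08 and 2.74 CPM, and in bladder female libraries 3.97, 5.28, 5.87 and 3.98 CPM. The lowest urethra library was therefore well above the highest bladder library, which was bladder male replicate 3, and urethra was higher in 8 of 8 pairs of libraries from 1 litter and sex. How many of all tested genes go 1 way in 8 of 8 such pairs was not computed, here or below. Those 8 pairs come from 4 litters. The means were 26.1 ± 5.27 CPM in urethra and 4.73 ± 1.34 CPM in bladder (SD, n = 8 each), a log2 fold change of 2.45 ± 0.16 (SE; adjusted p = 8.87e-10, edgeR). It was 2.32 ± 0.23 in males and 2.57 ± 0.23 in females, and without bladder male replicate 3 the mean over both sexes was 2.62 ± 0.15.

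Foxd3 (chr4:99656299-99658622, plus strand), a forkhead factor of neural crest cells that glial precursors keep, followed the same order. It had 8.94, 10.8, 9.73 and 9.91 CPM in urethra male libraries and 8.99, 13.2, 12.3 and 14.8 CPM in urethra female libraries. It had 1.66, 2.14, 2.92 and 0.698 CPM in bladder male libraries and 1.12, 2.1, 1.92 and 1.65 CPM in bladder female libraries. The tissues did not overlap, and bladder male held both the highest and the lowest bladder library, replicates 3 and 4, as it did for Sox10. The log2 fold change was 2.62 ± 0.19 (6.16-fold; adjusted p = 2.06e-09, edgeR), with 2.39 ± 0.27 in males and 2.85 ± 0.27 in females.

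Fabp7 (chr10:57784881-57788450, plus strand), a fatty acid carrier of Schwann cell precursors and radial glia, had the highest level per kilobase of exon of the 8 genes in urethra. It had 51.9, 63.2, 59.7 and 57 CPM in urethra male libraries and 59.6, 73.5, 63.1 and 61.3 CPM in urethra female libraries. Bladder male libraries had 13.9, 16.3, 21.1 and 11.9 CPM, and bladder female libraries 15.7, 18, 11.7 and 13 CPM. No library of one tissue reached the other tissue's range, and the spread within urethra was small, at 61.2 ± 6.2 CPM against 15.2 ± 3.25 CPM in bladder (SD, n = 8 each). The log2 fold change was 2.01 ± 0.11 (adjusted p = 7.17e-11, edgeR).

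Cdh19 (chr1:110888326-110977584, minus strand), a cadherin by which Schwann cell precursors attach to each other, was counted least securely of these 4. Its counts were 49 to 104 in urethra libraries and 1 to 14 in bladder libraries. The mean was 2.47 ± 0.584 CPM in urethra and 0.384 ± 0.192 CPM in bladder (SD, n = 8 each), a log2 fold change of 2.67 ± 0.26 (adjusted p = 6.96e-08, edgeR). The 2 tissues did not overlap in CPM, but bladder male replicate 4 rests on 1 count.

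Erbb3 (chr10:128567523-128589652, minus strand), the neuregulin receptor of the Schwann lineage and also a receptor of many epithelia, differed less. It had 72.6, 66.8, 72.2 and 73 CPM in urethra male libraries and 56.8, 74.3, 57.1 and 58.6 CPM in urethra female libraries. It had 52.3, 52, 69 and 50.6 CPM in bladder male libraries and 46.1, 41, 30.6 and 36.3 CPM in bladder female libraries. Bladder male replicate 3 lay within the urethra range, so the tissues overlapped, yet urethra was higher in 8 of 8 pairs. The log2 fold change was 0.51 ± 0.09 (1.43-fold; adjusted p = 4.53e-05, edgeR), and 0.61 ± 0.08 without that library. In males alone, where it was 0.35 ± 0.12 (adjusted p = 0.0197), the call was lost without bladder male replicate 2 (adjusted p = 0.0552) or replicate 4 (adjusted p = 0.0612).

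S100b (chr10:76253853-76261159, plus strand), a calcium-binding protein of glia, also overlapped between the tissues. It had 4.06, 6.01, 4.95 and 4.42 CPM in urethra male libraries and 4.86, 7.18, 5.81 and 5.83 CPM in urethra female libraries. It had 2.76, 2.48, 2.69 and 3.81 CPM in bladder male libraries, all below the urethra libraries, and 5.59, 5.17, 3.59 and 8.12 CPM in bladder female libraries, of which replicate 4 was the highest of all 16. Urethra was higher in 6 of 8 pairs, and the log2 fold change was 0.40 ± 0.15 (1.32-fold; adjusted p = 0.0234, edgeR). That call was lost without urethra female replicate 2 (adjusted p = 0.0501) or urethra male replicate 2 (adjusted p = 0.0542), and with the mean level of epithelium genes as a covariate (0.38 ± 0.22; adjusted p = 0.14). In males the log2 fold change was 0.73 ± 0.22 (adjusted p = 0.00795) and in females 0.07 ± 0.21 (adjusted p = 0.77), and the test of this difference gave 0.66 ± 0.30 (adjusted p = 0.569). S100b overlaps Dip2a on the other strand, and the counting used strand.

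Gfap (chr11:102887336-102900912, minus strand), an intermediate filament of astrocytes and of some Schwann and enteric glia, was close to the limit of counting. Its counts were 17 to 33 in urethra libraries and 9 to 16 in bladder libraries. The mean was 0.905 ± 0.137 CPM in urethra and 0.649 ± 0.135 CPM in bladder (SD, n = 8 each), and the ranges overlapped. Urethra was higher in 8 of 8 pairs, by as little as 0.03 on the log2 scale. The log2 fold change was 0.48 ± 0.15 (1.40-fold; adjusted p = 0.0075, edgeR). It was no longer called with the epithelium covariate (0.37 ± 0.22; adjusted p = 0.158).

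Mal (chr2:127633226-127656695, minus strand), the apical sorting protein, was the member that was lower in urethra. It had 87.9, 68.2, 66.8 and 88.8 CPM in urethra male libraries and 56.7, 48.2, 32 and 18.5 CPM in urethra female libraries. It had 205, 254, 247 and 234 CPM in bladder male libraries and 184, 205, 88.8 and 120 CPM in bladder female libraries. The tissues met at 88.8 CPM, in urethra male replicate 4 and bladder female replicate 3, and urethra was lower in 8 of 8 pairs. The log2 fold change was −1.77 ± 0.21 (adjusted p = 2.74e-06, edgeR).

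The level of Mal went with genes of the epithelium that the dissection was meant to remove. All 22 epithelium genes were detected, with summed levels of 805.3 to 2828 CPM in urethra libraries and 2309 to 5730 CPM in bladder libraries. Of these 22, 12 were called lower and 1 higher in urethra, against 38.5% and 36.5% of all tested genes. The median log2 fold change of the 22 was −0.52. Upk3a and Upk2, uroplakins of the bladder lining, were lowest at −2.84 ± 0.29 and −2.41 ± 0.25, and Grhl2, an epithelial transcription factor, was the gene called higher, at 0.40 ± 0.16. Within groups, over 16 libraries, the correlation of Mal with the mean of this list was 0.98. Among the genes most like Mal of all tested genes were Cldn4 (0.99) and Krt8 (0.98), which are members of this list. With the epithelium level as a covariate the tissue difference of Mal was −0.95 ± 0.07 (adjusted p = 1.28e-08, edgeR), smaller than without it and still called. For Sox10 it was 2.18 ± 0.20 with the covariate, for Foxd3 2.44 ± 0.25, for Fabp7 2.16 ± 0.14, for Cdh19 2.42 ± 0.34 and for Erbb3 0.71 ± 0.11. The mean log2 CPM of the epithelium list was 5.9 in urethra and 6.73 in bladder, so the covariate and tissue are partly confounded. The part of leftover epithelium in the level of Mal was not tested.

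**Figure D2:**
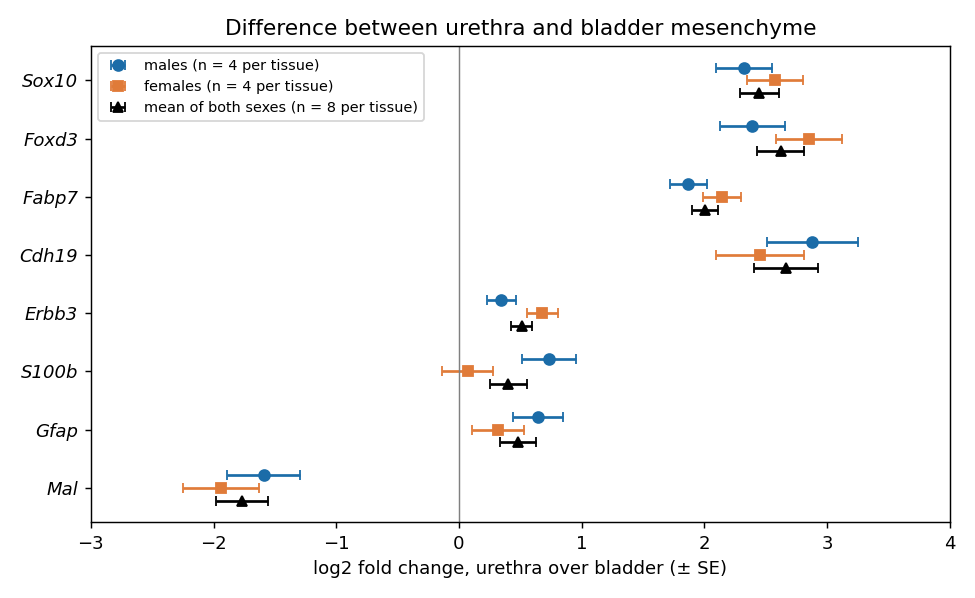
Log2 fold change of urethra over bladder (x axis) for each gene (rows), with bars for the SE, in males, in females and as the mean of both sexes. Sox10, Foxd3, Fabp7 and Cdh19 lie between 2.01 and 2.67 for the mean of both sexes, Erbb3, S100b and Gfap between 0.40 and 0.51, and Mal at −1.77.

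In each sex Sox10, Foxd3, Fabp7, Cdh19 and Erbb3 were called higher and Mal lower in urethra. In males 7 of the 8 genes were called higher and 1 lower in urethra, where 31.4% of all tested genes were called higher and 32.6% lower. In females 5 were called higher and 1 lower, against 32.6% and 33.1%; the genes not called were S100b and Gfap, at 0.07 ± 0.21 and 0.32 ± 0.21. For none of the 8 was a difference of the tissue effect between the sexes called (edgeR, where 0.668% of all tested genes were called in either direction; 1 of 8 had an unadjusted p under 0.05, against 8.38% of all tested genes, and DESeq2 called 0).

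Between the sexes edgeR called no glia gene in either tissue in the fit without litter; with litter as a replicate block it called Mal in urethra (1.07; adjusted p = 0.0465), and without the expression filter Erbb3 (adjusted p = 0.0404) and S100b (adjusted p = 0.0337) in bladder. In urethra 3.97% of all tested genes were called higher and 2.42% lower in males, and 1 of the 8 glia genes had an unadjusted p under 0.05, against 19.2% of all tested genes. DESeq2 called 1 of the 8, against 7.78% of the genes it tested. In both cases that gene was Mal, which was higher in all 4 urethra male libraries than in all urethra female libraries, at 1.00 ± 0.30 on the log2 scale (adjusted p = 0.0652), and at 0.23 ± 0.09 (adjusted p = 0.236) with the epithelium covariate. In bladder 0.247% were called higher and 0.334% lower in males, and 3 of the 8 had an unadjusted p under 0.05, against 12.4% of all tested genes. DESeq2 called 2 of the 8, against 3.09% of the genes it tested. Erbb3 was higher in every bladder male library than in every bladder female library, at 0.54 ± 0.12 (adjusted p = 0.0572, edgeR; 0.00514, DESeq2). With the epithelium covariate it was 0.38 ± 0.12 (adjusted p = 0.337, edgeR), and the summed epithelium level was 4765 to 5730 CPM in bladder male libraries and 2309 to 4656 CPM in bladder female libraries. S100b was lower in males in 4 of 4 litters, at −0.94 ± 0.22 (adjusted p = 0.0625 by edgeR and 0.00354 by DESeq2), and at −0.93 ± 0.26 (adjusted p = 0.27, edgeR) with the covariate. The third gene was Mal, higher in males in 4 of 4 litters, at 0.66 ± 0.29 (adjusted p = 0.381, edgeR). With the covariate Mal was at −0.009 ± 0.08 (adjusted p = 0.973, edgeR). The shares of all tested genes that separate the sexes without overlap, or in 4 of 4 litters, were not computed. Sox10, Foxd3, Fabp7 and Cdh19 differed between the sexes by −0.32 to 0.02 in urethra and by −0.41 to 0.14 in bladder on the log2 scale, with adjusted p of at least 0.475.

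The order of levels, set per kilobase of exon so that genes can be compared, differed between the tissues. In urethra it ran from Fabp7 (48.9 CPM per kilobase) through Mal (21), Erbb3 (11), Sox10 (8.54), Foxd3 (4.77) and S100b (3.63) to Cdh19 (0.577) and Gfap (0.215). In bladder Mal came first (69.1), then Fabp7 (12.2), Erbb3 (7.85), S100b (2.88), Sox10 (1.55), Foxd3 (0.764), Gfap (0.154) and Cdh19 (0.0898). Neighbours whose mean ± SD overlapped were Mal and Erbb3, Erbb3 and Sox10, and Foxd3 and S100b in urethra, and Fabp7 and Erbb3, S100b and Sox10, and Gfap and Cdh19 in bladder.

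Ratios to Sox10 within a library show which genes kept step with it. The ratio of Foxd3 to Sox10, per kilobase, was 0.522 to 0.608 with a median of 0.555 in urethra libraries and 0.335 to 0.602 with a median of 0.519 in bladder libraries. For Cdh19 the medians were 0.0655 in urethra and 0.0604 in bladder. Fabp7 had a median ratio of 5.98 in urethra and 8.2 in bladder, with overlapping ranges. The ratio of S100b was 0.336 to 0.52 in every urethra library and 0.779 to 4.19 in every bladder library, so these did not overlap. That of Erbb3 also did not, with 0.832 to 1.77 in urethra and 2.65 to 9.37 in bladder. Those of Gfap, with 0.0174 to 0.0338 in urethra and 0.0473 to 0.17 in bladder, and of Mal, with 0.569 to 4.63 in urethra and 16.6 to 93.8 in bladder, did not overlap either. Sox10 itself was 5.46-fold higher in urethra without overlap, so a ratio to it falls there for a gene that differs little. The share of all tested genes whose ratio to Sox10 did not overlap was not computed.

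Sox10, Foxd3 and Cdh19 also varied together between libraries of a group. After the group means were subtracted, the correlation of log2 CPM over the 16 libraries, which share litters and depth, was 0.92 for Sox10 and Foxd3, 0.82 for Sox10 and Cdh19, and 0.78 for Foxd3 and Cdh19. Bladder male replicate 4 was the lowest bladder library for Sox10, Foxd3 and Cdh19, at 51, 13 and 1 counts. Bladder male replicate 3 was the highest for Sox10 and Foxd3. The correlations without these libraries were not computed. The correlation of Sox10 was 0.59 with Fabp7, −0.33 with S100b, −0.47 with Gfap and −0.4 with Mal. Among all tested genes outside the 8, those most like Sox10 were Sarm1 (0.95), an enzyme of axon degeneration, Cmpk2 (0.93) and the potassium channel gene Kcna6 (0.92). Those most like Foxd3 were Slc6a15 (0.95), A830082N09Rik (0.95) and Nrcam (0.94), and those most like Fabp7 were Ano2 (0.96), Tagln3 (0.93) and Kcnk10 (0.92). For Cdh19 they were Gm4972 (0.89), Cmtm5 (0.86) and BC025920 (0.86), and genes among the most like Erbb3 were Tgfa (0.92) and Abcd3 (0.91). For S100b they were Gm5884, Bnip3l-ps and Snx15 (0.85, 0.85 and 0.83), and for Gfap Zfp189, Gm16140 and Tmem80 (0.91, 0.87 and 0.86). These are the highest of very many correlations over 16 libraries, given without a test. Those of Gfap rest on 9 to 33 counts in a library.

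Most other Schwann lineage genes tested were also called higher in urethra. Of 32 listed, 30 were tested, and 21 were called higher and 3 lower, against 36.5% and 38.5% of all tested genes. Another 6 were not called, and the median log2 fold change of the 30 was 1.44. The highest were Tfap2b (3.57 ± 0.36) and Tfap2a (3.49 ± 0.11), AP-2 factors of the neural crest, and the lowest Art3 (−2.86 ± 0.13) and Sostdc1 (−1.22 ± 0.11). Of 6 satellite glia genes 5 were called higher and 1 lower, against the same 36.5% and 38.5%, with a median of 0.51. The potassium channel genes Kcnj16 (3.64 ± 0.40) and Kcnj10 (2.57 ± 0.23), whose channels buffer potassium around neurons, were the highest, and the ecto-ATPase gene Entpd2 (−0.65 ± 0.15) was the one that fell.

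Of the neuregulins, Nrg1 and Nrg3 rose and Nrg2 fell in urethra, and the receptors Erbb2 and Erbb4 rose. The list of neuregulin and ErbB genes also holds Egfr and the proteases Adam10, Adam17 and Bace1. Of its 9 tested genes 7 were called higher and 1 lower, against 36.5% and 38.5% of all tested genes, with a median of 0.30. Nrg1, the axonal ligand, averaged 13.9 ± 1.32 CPM in urethra and 5.47 ± 0.961 CPM in bladder (SD, n = 8 each; log2 fold change 1.34 ± 0.10, adjusted p = 4e-09, edgeR). Erbb2, the kinase partner of Erbb3, averaged 138 ± 10.1 CPM in urethra and 87 ± 6.66 CPM in bladder (0.66 ± 0.05, adjusted p = 1.33e-09, edgeR). Nrg3 (3.69 ± 0.28) and Erbb4 (3.09 ± 0.22) had the largest rises, from low counts in bladder, and Nrg2 fell by 1.01 ± 0.10 on the log2 scale.

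Neurons of the pelvic ganglia are the neighbours of these glia, and their genes moved with the first group. All 25 autonomic neuron genes were called higher in urethra, against 36.5% of all tested genes, with a median log2 fold change of 3.90. Of these 25, 23 had a larger log2 fold change than any of the 8 glia genes. Their summed level was 3969 to 6517 CPM in urethra libraries and 321.6 to 1286 CPM in bladder libraries. The highest were Vip (4.79 ± 0.38), a neuropeptide gene, and Slc18a3 (4.69 ± 0.45), the vesicular acetylcholine transporter gene. Within groups the correlation with the mean of the neuron list was 0.77 for Sox10, 0.75 for Foxd3, 0.74 for Fabp7, 0.51 for Cdh19, 0.45 for Erbb3, 0.01 for Mal, −0.18 for S100b and −0.48 for Gfap. With the mean of the other Schwann lineage genes it was 0.83 for Sox10, 0.81 for Foxd3, 0.57 for Fabp7 and 0.57 for Cdh19. For Erbb3, S100b, Mal and Gfap that correlation was 0.28, −0.09, −0.27 and −0.41. With the mean of 10 cartilage genes it was 0.67 for Sox10, 0.5 for Foxd3, 0.56 for Fabp7, 0.41 for Cdh19 and 0.28 for Erbb3. For Mal, S100b and Gfap it was −0.11, −0.29 and −0.4 with those cartilage genes. With the epithelium list it was 0.57 for Erbb3 and −0.39 for Sox10. The mean log2 CPM of the neuron list had an SD of 1.34 in bladder male and 0.18 to 0.33 in the other groups. The part of neurons in these results was not tested.

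**Figure D3:**
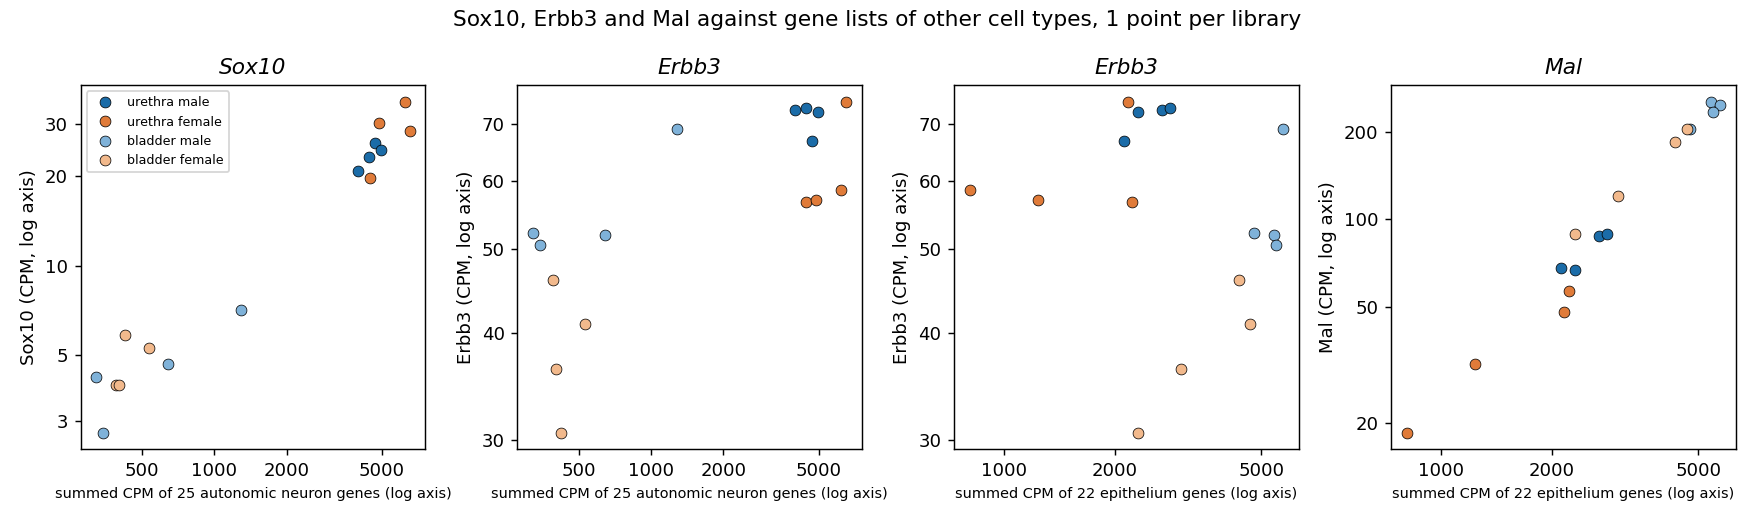
Level of Sox10, Erbb3 and Mal in CPM (y axes) against the summed CPM of 25 autonomic neuron genes or 22 epithelium genes (x axes), all on log axes, with 1 point per library coloured by group. Bladder male replicate 3 has the highest neuron sum of the bladder libraries at 1286 CPM with 7.08 CPM of Sox10 and 69 CPM of Erbb3, and Mal follows the epithelium sum within both tissues.

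Genes of other cells that use Sox10 or S100b gave different pictures. Melanoblasts, which also carry Sox10, were checked with 8 genes, of which 3 were tested. Kit (1.32 ± 0.09) and Mitf (0.93 ± 0.12) were the 2 called higher in urethra, against 36.5% of all tested genes. The third, Pmel, had 19 to 50 counts in each library and was not called (−0.13 ± 0.12; adjusted p = 0.33, edgeR). Of the pigment enzyme genes, Dct had 0 to 13 counts in a library, Tyr 0 to 1 and Tyrp1 0 to 2; the part of melanoblasts in the level of Sox10 was not tested. Cartilage cells, which also carry S100b, were checked with 10 genes, of which 8 were tested. Of these, 6 were called higher, against 36.5% of all tested genes, with a median of 1.68. Col2a1 (3.60 ± 0.17) and Cnmd (3.03 ± 0.32) were the highest. The summed level was 184.6 to 251.1 CPM in urethra libraries and 58.06 to 98.19 CPM in bladder libraries. Within groups, S100b correlated with the mean of the 10 cartilage genes at −0.29. The part of cartilage in the level of S100b was not tested. Of the 8 genes of central nervous system glia 2 were tested, Gpr17, a receptor of oligodendrocyte precursors, at 3.21 ± 0.17 and Aldh1l1, a folate enzyme of astrocytes, at −1.91 ± 0.09. Gpr17 averaged 26.5 ± 5.44 CPM in urethra and 2.84 ± 1.01 CPM in bladder (SD, n = 8 each).

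**Figure D4:**
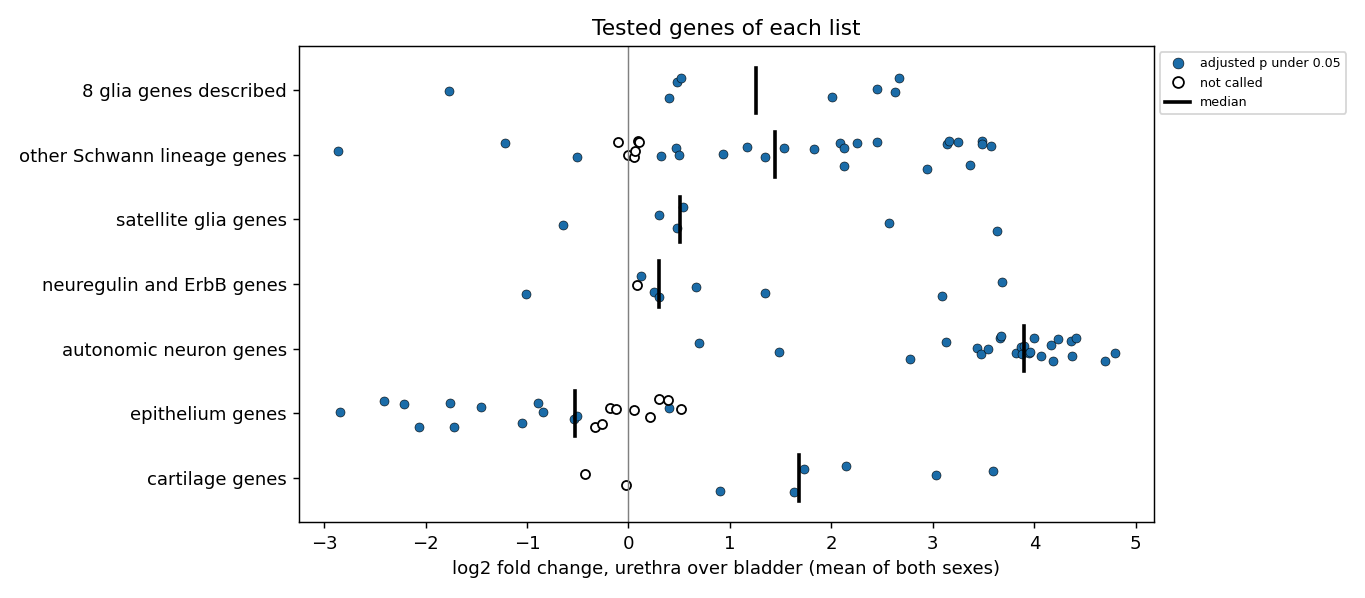
Log2 fold change of urethra over bladder, as the mean of both sexes (x axis), for each tested gene (points) of the 8 glia genes and of 6 other lists (rows), filled where the adjusted p was under 0.05, with the median of each list as a bar. The medians were 1.26 for the 8 glia genes, 1.44 for other Schwann lineage genes, 0.51 for satellite glia genes, 0.30 for neuregulin and ErbB genes, 3.90 for autonomic neuron genes, −0.52 for epithelium genes and 1.68 for cartilage genes.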

How the data were processed

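The deposited table used here gives counts of read pairs for each gene symbol. Per the file headers, the authors ran featureCounts in strand setting 2 and left out multimapping reads and reads that overlap several genes. Per the submitters' processing notes, reads were aligned to GRCm38 with HISAT2 2.1.0 and counted with Subread 1.6.3; the sources used here do not give the annotation release. Per the labels' protocols, 250 ng of total RNA went into each library, read as 100 bp paired ends. A second deposited table, of normalized values, was not used here.

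The tools were edgeR 4.0.16, DESeq2 1.42.0 and limma 3.58.1 in R 4.3.3; figures used Python 3.11.15 and matplotlib 3.10.9. The main test was edgeR's quasi-likelihood test (TMM scaling, filterByExpr, robust fits) in 1 fit of the 4 groups, with Benjamini-Hochberg adjustment over 18254 genes and a threshold of 0.05. CPM used TMM-scaled totals, log2 CPM a prior count of 2, and levels per kilobase the exon length in the table. The SE is an approximation, the absolute log2 fold change over the root of the F statistic. The steps were tested on simulated data in which few genes differed, up and down alike, and no libraries shared a litter. That setting differs from these data, so it does not check the scaling or the shared litters here.

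The 8 genes and the 8 other lists, of 121 genes, were chosen with earlier results of these data known. From each list the text names the 2 called genes with the highest and the 2 with the lowest log2 fold change, plus genes that a sentence on one of the 8 turns on (Nrg1, Erbb2, and genes that define other cell types), and for likeness the 3 genes with the highest within-group correlation. Some genes that this rule selects are not reported here.

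The labels give the litter, which pairs the libraries. Deviations from the group means of urethra and bladder of 1 litter and sex correlated at 0.09 to 0.41 (median 0.2, 7 of 8 pairs over 0.1). Those of male and female of 1 litter and tissue correlated at −0.05 to 0.27 (median 0.12, 4 of 8 pairs over 0.1). The litter was left out of the main fit and was an alternative, as were DESeq2, other scaling and filters, an epithelium covariate, fits of 8 libraries and leaving out libraries.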

Additional observations from a re-analysis of the deposited data

Results flagged for a closer look

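Of 32 sets of 4 libraries (8 genes in 4 groups), 3 held a library far from the other 3 by Dixon's test, all for Erbb3; chance flags about 1 in 20 such sets. Urethra male replicate 2 was lowest at 66.8 CPM, where the other urethra male libraries had 72.2 to 73 CPM. Urethra female replicate 2 was highest at 74.3 CPM, where the others had 56.8 to 58.6 CPM. Bladder male replicate 3 was highest at 69 CPM, where the others had 50.6 to 52.3 CPM.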

How the results depend on the processing

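The direction of all 8 genes between the tissues, as the mean of both sexes, held under each alternative run. With litter as a replicate block, 47 of 48 comparisons of single genes kept their side of the threshold, and with litter and sex pool as the block 24 of 24 did; the exception was Mal between the sexes in urethra (1.07 on the log2 scale, adjusted p = 0.0465, edgeR), so 1 glia gene was called there with the block. DESeq2 also called 1 in urethra, and 2 in bladder. In bladder, library totals alone gave 1 and no expression filter gave 2, and leaving out each library gave 0 to 1 in both tissues.

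Genes called between the sexes in urethra numbered 1167, but 463 with the epithelium covariate, 370 without the 2 urethra female libraries lowest in epithelium, and 674 to 1691 with each library left out. In bladder 106 were called, but 480 by DESeq2, 26 with the covariate, 16 with only the 8 libraries compared, and 40 to 174 with each library left out. For the interaction 122 were called, but 270 by DESeq2, 185 with the covariate, 56 without those 2 libraries, and 70 to 147 with each left out. The cause was not tested.

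Library totals alone moved the median log2 fold change between tissues by 0.136 and the share of called genes that were higher in urethra to 60.8%, against 48.7% with TMM. A filter of 1 CPM left Gfap untested. Counts of 1 to 14 for Cdh19 in bladder and of 9 to 33 for Gfap limit their precision.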
